A study of Mus musculus with 9 samples.

Results

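The proteasome subunit genes of mouse cerebral cortex were taken as every gene whose symbol begins with Psma, Psmb, Psmc, Psmd, Psme, Psmf or Psmg followed by a number, which gave 50 of the 32531 genes counted. Among them were 8 alpha-ring genes, 11 beta-ring genes, 17 subunits of the 19S cap, 3 chaperones of the cap, 5 activator genes, 1 inhibitor gene and 4 chaperones of the core. The rule also took Psmc3ip, which encodes a meiotic recombination protein named for binding a proteasome subunit and is no subunit itself.

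The proteasome is the protease that degrades proteins marked with ubiquitin. Its barrel-shaped 20S core has outer rings of alpha subunits, which form the gate, and inner rings of beta subunits, of which only beta1, beta2 and beta5 cut peptides. The 19S cap recognises the ubiquitin chain and unfolds the substrate with a ring of ATPases. In cells exposed to interferons, and constitutively in many immune cells, Psmb9, Psmb10 and Psmb8 replace Psmb6, Psmb7 and Psmb5 at these sites and form the immunoproteasome, whose products feed antigen presentation by class I molecules.

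The data were 9 RNA sequencing libraries of untreated adult control mice (line Abcb1a-TRAP ES3026, Abcb1a-EGFP/Rpl10a), in which regulatory sequence of Abcb1a, a transporter gene of brain endothelium, drives the ribosomal protein Rpl10a fused to EGFP. Translating ribosome affinity purification (TRAP) pulls down tagged ribosomes with antibodies to EGFP and so collects ribosome-bound RNA of the tagged cells, with RNA of other cells as background. The 3 groups were 3 immunopurified libraries whose RNA was extracted by the investigator with the initials ES (ES IP), 3 immunopurified libraries extracted by the investigator JL (JL IP) and 3 libraries of cortex RNA before purification, also by JL (JL input). The submitters state no other difference between ES and JL, and no input of ES was analysed here. Every group carried the same transgene, line and tissue. Whether each library is a mouse of its own is not said in the labels, so p-values here reflect only how far these libraries scatter, which may be technical.

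Gene counts per library ran from 31987470 to 46598478, and the 50 genes together took 0.298 to 0.314% of them in JL input, 0.420 to 0.437% in JL IP and 0.393 to 0.597% in ES IP. CPM are counts per 1e6 gene counts after TMM scaling of library sizes. The labelled cell type was endothelium. Its 10 markers summed to 7797 to 8130 CPM in the JL IPs, 756 to 1274 in the ES IPs and 55.3 to 62.3 in the inputs. The 10 neuronal markers summed to 2072 to 2816, 17392 to 19175 and 16609 to 17421 CPM in the same order, so that the ES IPs held endothelial RNA together with neuronal marker RNA at a level near that of the inputs. Fewer cells of a type and less RNA per cell cannot be told apart in such libraries. The ribosomal RNA precursor Rn45s took 15.7 to 17.9% of gene counts in the JL IPs, 6.04 to 12.03% in the ES IPs and 4.84 to 5.29% in the inputs.

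The comparison of JL IP with JL input asked which proteasome transcripts were enriched on the tagged ribosomes. The core, its immune subunits and its activators were mostly higher in the IP, whereas the 19S cap was divided. Among the 49 that could be tested, 35 (71.4%) had higher levels in JL IP and 4 (8.16%) had lower ones, beside 36.7% higher and 37.4% lower among all 17357 genes tested, at an adjusted p under 0.05 by edgeR's quasi-likelihood test. Called genes in either direction came to 39 (79.6%), close to the 74.1% of all genes. The median log2 fold change was 0.71 over the 49 genes and -0.09 over all genes. Groups without overlap were common, at 38.7% (JL IP higher) and 42.2% (lower) of all genes and 73.5% and 10.2% of the 49. With library size alone as the scaling, 28 were higher and 8 lower, and with upper quartile scaling 28 and 7, so the higher share of called genes went from 89.7% to 77.8% and 80.0%. Leaving out any 1 of the 3 inputs left 2 genes lower.

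**Figure D1:**
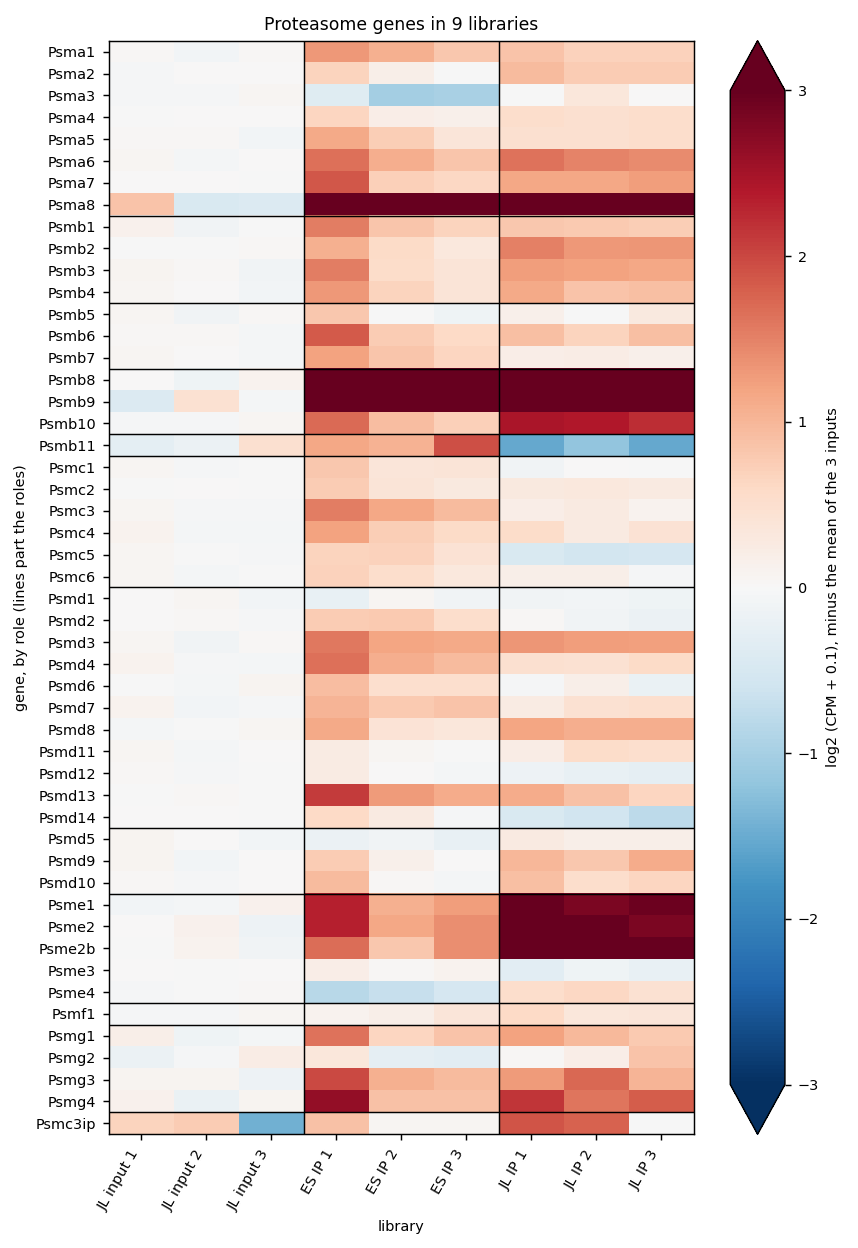
Levels of the proteasome subunit genes in each of the 9 libraries, as log2 of CPM plus a pseudocount of 0.1, relative to the mean of the 3 JL inputs of the same gene, grouped by role; the colour scale ends at -3 and 3. Psmb8, Psmb9, Psmb10, Psme1, Psme2, Psme2b and Psma8 stand out as high in the JL IPs, where most 19S genes stay near the input level. Of these Psmb8, Psmb9 and Psma8 also stand out in every ES IP.

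The catalytic subunits showed the widest division. All 3 immunoproteasome subunits were higher in the JL IPs than in the inputs, by 5.16-fold for Psmb10 to 173-fold for Psmb9. Of the 3 constitutive subunits they replace, Psmb6 was 1.78-fold higher, and Psmb7 and Psmb5 lay within 1.15-fold of the inputs. Psmb8 (chr17:34197721-34201454, plus strand, mm10) and Psmb9 (chr17:34181987-34187764, minus strand) flank Tap1, a peptide transporter gene, in the class II region of the major histocompatibility complex, while Psmb10 lies apart from them at chr8:105935735-105938444.

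Sequences near the starts of 4 genes, 3 of them catalytic subunits and 1 an activator, are shown. All 4 held a motif searched for, so they do not stand for their sets. The 2 sets of subunits are known for different regulators. Interferons act through the factors IRF and STAT on the immune set, and loss of proteasome activity acts through Nfe2l1 on the standard set. The promoter windows, from RefSeq on GRCm38.p6, ran from 250 bases before to 50 after each start and existed for 42 of the 50 genes. They were searched on both strands for GAAANNGAAA (an interferon-stimulated response element), TTCNNNGAA (a STAT site) and TGACNNNGC (an antioxidant response element). Capitals mark the match. In Psme1, printed on the gene's strand, the match reads on the other strand and lies just after the start.
Psmb8 (chr17:34198087-34198116, plus strand): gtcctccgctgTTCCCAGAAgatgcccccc
Psme1 (chr14:55578493-55578522, plus strand): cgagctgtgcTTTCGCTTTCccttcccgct
Psmb5 (chr14:54618023-54618145, minus strand): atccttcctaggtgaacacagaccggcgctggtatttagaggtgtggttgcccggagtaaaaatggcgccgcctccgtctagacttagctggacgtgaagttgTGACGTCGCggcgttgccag
Psmb6 (chr11:70525207-70525356, plus strand): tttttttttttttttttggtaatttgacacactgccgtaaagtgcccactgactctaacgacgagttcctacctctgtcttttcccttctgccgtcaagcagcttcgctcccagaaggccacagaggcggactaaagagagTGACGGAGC
The antioxidant element was found in 6 of 42 genes (14.3%; Psmb5, Psmb6, Psmc6, Psmd9, Psmd12 and Psme4), beside 14.0% of the 27025 genes with a window. The STAT site was found in 3 (7.14%; Psmb8, Psmd2 and Psmg1), beside 9.55%, and the interferon element in 5 (11.9%; Psmb3, Psmd4, Psmd9, Psme1 and Psmg4), beside 3.99%. No match was found for the immune Psmb9 and Psmb10 or the constitutive Psmb7, and whether Psmb10 and Psmb7 had a window is not given here. A match describes letters and not a bound site. The 225 bases between the RefSeq starts of Psmb9 and Tap1 held none of the 3 motifs.

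Psmb8, the immune beta5 subunit, stood at 126, 121 and 91.1 CPM in JL IP, 57.1, 20.7 and 25.6 in ES IP and 1.65, 1.497 and 1.78 in JL input. Every IP library exceeded every input, and no ES IP reached a JL IP. Its log2 fold change of JL IP over input was 6.10 ± 0.17 (SE), at rank 316 of 17357 genes (edgeR's quasi-likelihood test, adjusted p = 1.05e-08). Psmb5, the constitutive beta5 subunit and target of proteasome inhibitor drugs, measured 33.9, 30.5 and 37.7 CPM in JL IP, 53.7, 30.3 and 28.1 in ES IP and 32.1, 28.5 and 31.7 in JL input. The 3 groups overlapped, and the log2 fold change of JL IP over input was 0.15 ± 0.11 (adjusted p = 0.255, edgeR's quasi-likelihood test).

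Psmb9, the immune beta1 subunit, had the largest fold change of the family. Its level was 228, 295 and 210 CPM in JL IP, 159, 55.8 and 71.4 in ES IP and 1.001, 1.92 and 1.30 in JL input. The 3 groups were fully separate, with a log2 fold change of 7.44 ± 0.24 over input at rank 128 (edgeR's quasi-likelihood test, adjusted p = 2.26e-08). Psmb6, its constitutive counterpart, reached 132, 112 and 131 CPM in JL IP, 252, 120 and 106 in ES IP and 71.3, 72.0 and 67.1 in JL input. Both IP groups lay above the inputs but overlapped each other, and JL IP exceeded input by a log2 fold change of 0.83 ± 0.09 (edgeR's quasi-likelihood test, adjusted p = 2.77e-05).

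Psmb10, the immune beta2 subunit, differed from the other immune subunits in its input level, at 27.0, 27.0 and 28.9 CPM. It measured 152, 146 and 130 CPM in the JL IPs and 89.3, 52.4 and 45.8 in the ES IPs. The groups again did not overlap, and the log2 fold change over input was 2.37 ± 0.09 (edgeR's quasi-likelihood test, adjusted p = 5.26e-08). Psmb7, the constitutive beta2 subunit, was at 122, 124 and 119 CPM in JL IP, 248, 191 and 168 in ES IP and 111, 108 and 102 in JL input. Its JL IP libraries lay just above the inputs, by a log2 fold change of 0.19 ± 0.07 (edgeR's quasi-likelihood test, adjusted p = 0.0284). That call was lost with DESeq2, with all 9 libraries in 1 fit, without any 1 of the inputs and with either other scaling, under which the sign turned.

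**Figure D2:**
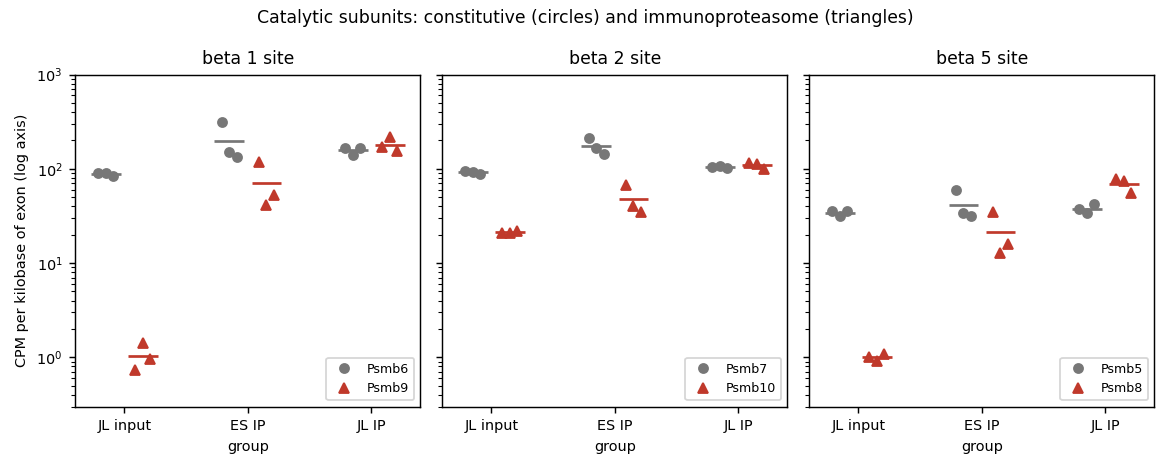
CPM per kilobase of exon (log axis) of the constitutive (circles) and the immune (triangles) subunit of each catalytic site, by group; each point is 1 library and lines are means of 3. Psmb8 and Psmb9 have means of 1.01 and 1.04 in the inputs and 69.3 and 181 in the JL IPs, while the means of Psmb5 lie between 34.2 and 41.5 in all 3 groups.

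As a share of the pair per kilobase of exon, the immune subunit made up 64.3 ± 6.29% at beta5, 53.3 ± 6.62% at beta1 and 50.8 ± 1.66% at beta2 in the JL IPs (mean ± SD, n = 3). In the inputs these shares were 2.87 ± 0.133%, 1.17 ± 0.364% and 18.6 ± 1.21%. The ES IPs held 32.6 ± 4.86%, 25.7 ± 3.61% and 21.0 ± 2.70%. At beta5 and beta1 the 3 groups were separate, whereas at beta2 the ES IPs (19.4 to 24.1%) overlapped the inputs (17.8 to 20.0%). Every pair is a ratio within a library and so does not depend on library scaling. No test was made, since an exact permutation test of 3 against 3 libraries cannot go below p = 0.10. Of the 50 genes, 13 share exon bases with another annotated gene, among them Psmb8, Psmb9, Psmb5, Psmb7 and Psme1, and without a stated strand such reads cannot be told apart. Reads that the counter set aside as ambiguous made up 2.04 to 2.13% of the reads counted to genes, to no gene or as ambiguous in the JL IPs, 2.44 to 2.54% in the ES IPs and 10.3 to 11.4% in the inputs, and their part in the levels of these 13 genes was not tested.

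**Figure D3:**
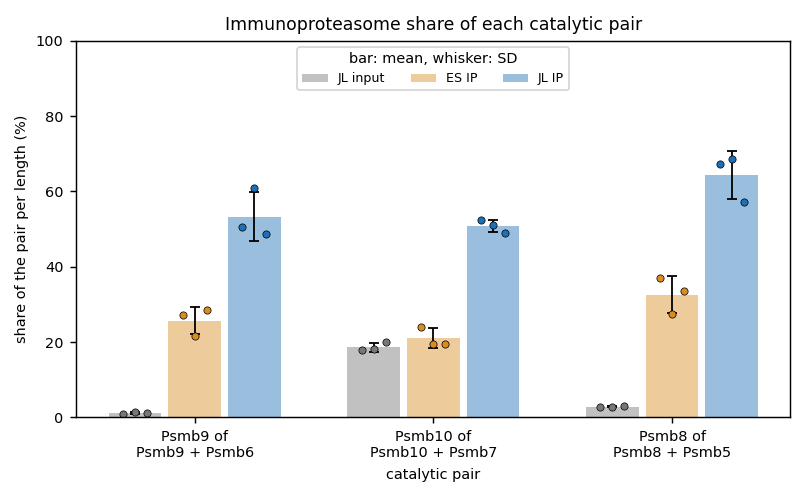
Share of the immune subunit in the sum of both subunits of a catalytic site, per kilobase of exon (percent); bars are means of 3 libraries, whiskers are SD and points are libraries. The JL IPs sit at 49.0 to 68.7%, and the inputs are under 3.02% at beta5 and beta1 but at 17.8 to 20.0% at beta2.

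The activators Psme1 and Psme2 (the alpha and beta subunits of PA28, an interferon-inducible cap that opens the core for peptides) were higher in the JL IPs, while the nuclear activator Psme3 was lower. Psme1 measured 260, 215 and 233 CPM in JL IP, 153, 63.4 and 73.1 in ES IP and 28.9, 29.2 and 33.2 in JL input. Psme2 was at 71.0, 76.0 and 60.3 CPM, 43.1, 19.1 and 22.5 CPM, and 8.60, 9.26 and 7.65 CPM in the same order. For both genes the 3 groups were separate, with log2 fold changes of JL IP over input of 2.96 ± 0.10 and 3.02 ± 0.13 (edgeR's quasi-likelihood test, adjusted p = 3.28e-08 and 1.1e-07). The 2 partners of the PA28 ring were 7.76-fold and 8.13-fold higher. Psme2b, a copy of Psme2 at low level, reached 6.41 ± 2.01 CPM in the JL IPs against 0.495 ± 0.0413 in the inputs, and is uncertain because reads of near-identical copies can be split or lost in counting. Psme3 lay at 93.6, 107 and 99.6 CPM in the JL IPs while the inputs held 118, 115 and 117 (log2 -0.22 ± 0.07; edgeR's quasi-likelihood test, adjusted p = 0.0228). The Psme3 groups did not overlap, but the call was lost without JL IP replicate 1, without any 1 input and with all 9 libraries in 1 fit. Psme4, the large single-chain activator PA200, was 1.45-fold higher in the JL IPs (log2 0.54 ± 0.07; edgeR's quasi-likelihood test, adjusted p = 0.000168).

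Microglia and leukocytes can hold immunoproteasomes as well. The 8 microglial markers summed to 25.3 to 26.3 CPM in the JL IPs, 36.0 to 46.7 in the ES IPs and 74.1 to 80.4 in the inputs, with 7 of 8 lower in JL IP than input and Tmem119 not passing (log2 0.19). The 9 leukocyte markers summed to 1.48 to 2.87, 1.17 to 2.04 and 2.43 to 2.98 CPM. Nkg7 and S100a8 had no count in any JL IP, and Ms4a1 had none in any library. Of the 3 leukocyte markers that could be tested, the B cell gene Cd79a was higher in the JL IPs (log2 3.28 ± 0.52; edgeR's quasi-likelihood test, adjusted p = 0.000467), Ptprc was lower (log2 -2.77 ± 1.08; adjusted p = 0.0435) and 1 did not pass. The part of these cells in the differences of the immune subunits was not tested. All 10 endothelial markers were higher in the JL IPs, by log2 fold changes of 6.12 (Kdr) to 9.49 (Cldn5).

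The 14 standard core subunits (Psma1 to Psma7 and Psmb1 to Psmb7) were enriched as a group by smaller steps. In the JL IPs 12 (85.7%) were higher than in the inputs and none was lower, beside 36.7% and 37.4% of all genes tested. The median log2 change was 0.81, and 11 were higher and none lower with either other scaling. Psma6, an alpha-ring subunit, had the largest change at 233, 211 and 201 CPM against 78.0, 71.9 and 75.8 in the inputs (log2 1.52 ± 0.08; edgeR's quasi-likelihood test, adjusted p = 4.49e-07). Psma3 had the smallest, at 8.39, 10.7 and 8.53 CPM against 8.28, 8.26 and 8.83, with overlapping groups and a log2 fold change of 0.13 ± 0.17 (adjusted p = 0.516, edgeR's quasi-likelihood test), which turned negative with either other scaling. Among the 4 non-catalytic beta subunits, all higher, the log2 fold changes ran from 0.78 ± 0.08 for Psmb1 (141, 138 and 135 CPM against 87.4, 74.3 and 79.6) to 1.39 ± 0.08 for Psmb2 (253, 220 and 225 against 88.1, 87.7 and 91.4). None of the libraries of Psmb1 or Psmb2 overlapped between the JL groups.

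Core subunits sit in the ring in equal number, yet their RNA levels per kilobase of exon were unequal. In the JL IPs they ran from 3.24 ± 0.462 CPM per kilobase for Psma3 to 324 ± 11.2 for Psma7, with a median of 72.9. The low end rests on Psma3 alone, since the next lowest was Psma5 at 32.0 ± 0.609. Whether read counting or the exon length used lowered Psma3 was not tested. The same genes were lowest and highest in ES IP (1.75 and 321) and JL input (2.97 and 142). Per kilobase, Psmb9 at 181 ± 33.3 and Psmb10 at 109 ± 8.80 exceeded that core median in the JL IPs, and Psmb8 at 69.3 ± 11.6 was near it. In the inputs Psmb8 and Psmb9 were at 1.01 ± 0.0881 and 1.04 ± 0.345, below every standard core subunit.

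The remaining core genes are tissue-specific variants. Psma8, the testis variant of Psma7, had 542, 888 and 565 reads in JL IP, 454, 243 and 180 in ES IP and 15, 3 and 3 in JL input. These reads correspond to 18.6, 25.8 and 19.1 CPM, 10.9, 5.31 and 4.07 CPM, and 0.294, 0.0599 and 0.0652 CPM. All 3 groups were separate, and the log2 fold change of JL IP over input was 7.19 ± 0.45 (edgeR's quasi-likelihood test, adjusted p = 1.08e-06), with 21 reads in all 3 inputs behind its denominator, 15 of them in replicate 1. Without that input it was 8.32. Per kilobase Psma8 stood at 12.5 ± 2.38 CPM in the JL IPs, far under the 324 ± 11.2 of Psma7. Psmb11, the thymus variant of the beta5 subunit, went the other way, with 1 read in the 3 JL IPs, 29 in the inputs and 91 in the ES IPs. Its ratio of ES IP to JL IP shares of gene counts was 71.2, with a 95% exact interval of 12.5 to 2842 that covers counting error only. Psmb11 was too low to be tested between JL IP and input.

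The 19S cap was divided, and its balance depended on the scaling. Of 17 subunits, 8 (47.1%) were higher and 3 (17.6%) lower in the JL IPs than in the inputs, beside 36.7% and 37.4% of all genes tested. With upper quartile scaling 4 were higher and 6 lower, and with library size alone 4 and 7. These scalings moved the median of all genes by -0.25 and -0.26. The cap had a median log2 change of 0.19, beside 0.81 for the standard core and -0.09 for all genes. Among the 6 ATPases, Psmc4 had the highest log2 fold change, at 89.7, 73.3 and 82.3 CPM against 65.6, 59.1 and 59.2 (log2 0.42 ± 0.10; edgeR's quasi-likelihood test, adjusted p = 0.00389), and the call was lost with either other scaling. Psmc5 had the lowest and was below the inputs, at 151, 143 and 147 CPM against 217, 205 and 203 (log2 -0.50 ± 0.07; edgeR's quasi-likelihood test, adjusted p = 0.000139). The groups of both genes were separate.

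Among the 11 non-ATPase subunits, the scaffold subunit Psmd3 was 2.41-fold higher, at 65.3, 62.7 and 61.3 CPM in the JL IPs against 27.4, 24.3 and 26.8 in the inputs (log2 1.27 ± 0.09; edgeR's quasi-likelihood test, adjusted p = 2.26e-06). Psmd14, the deubiquitinase that removes the ubiquitin chain at the cap, was lower, at 67.0, 62.2 and 53.3 CPM against 92.2, 92.1 and 91.9 (log2 -0.60 ± 0.10; edgeR's quasi-likelihood test, adjusted p = 0.000493). Both were separate between the groups. The largest subunits, Psmd1 and Psmd2, gave log2 fold changes of -0.11 ± 0.07 and -0.07 ± 0.08 and did not pass the test, but both were lower with either other scaling. The ubiquitin receptor Psmd4 was higher by 0.51 ± 0.08 (edgeR's quasi-likelihood test, adjusted p = 0.000421).

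**Figure D4:**
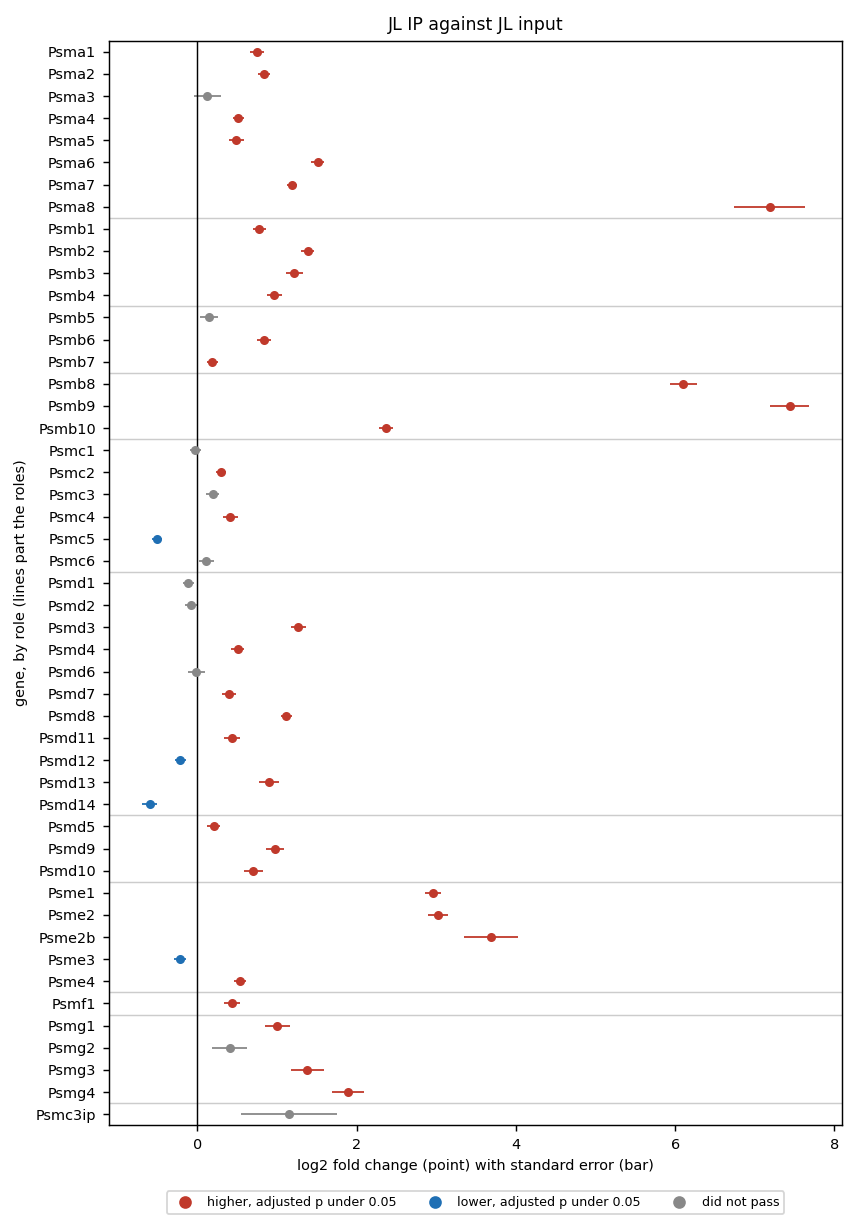
Log2 fold change of JL IP over JL input for the 49 tested proteasome genes, grouped by role, with SE bars; red and blue points (higher and lower) passed an adjusted p of 0.05 and grey points did not. The immune subunits, PA28 and Psma8 lie between 2.37 and 7.44, and the 19S subunits between -0.60 and 1.27.

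Assembly factors were mostly higher in the JL IPs. Of the core chaperones, Psmg1, Psmg3 and Psmg4 were higher by log2 fold changes of 1.003 ± 0.16, 1.38 ± 0.20 and 1.89 ± 0.20 (edgeR's quasi-likelihood test, adjusted p = 0.000431, 0.000286 and 3.34e-05). Psmg4 measured 19.8, 13.5 and 15.6 CPM in the JL IPs against 4.77, 3.79 and 4.63 in the inputs, without overlap. Psmg2, the partner of Psmg1, was at 20.1, 22.5 and 35.7 CPM against 17.1, 19.1 and 22.7, with overlapping groups, and did not pass (log2 0.41 ± 0.22; adjusted p = 0.12, edgeR's quasi-likelihood test), but passed at 0.57 without JL IP replicate 1. The cap chaperones Psmd9, Psmd10 and Psmd5 were higher by 0.98 ± 0.11, 0.71 ± 0.12 and 0.21 ± 0.08. Psmd9 was at 40.5, 35.1 and 43.5 CPM against 21.2, 19.1 and 20.3, and Psmd5 at 78.7, 74.3 and 73.8 against 69.7, 65.6 and 61.6, both without overlap. The call of Psmd5 (edgeR's quasi-likelihood test, adjusted p = 0.0412) was lost with DESeq2, with no filter, with all 9 libraries in 1 fit, without JL IP replicate 1 and without any 1 input, and its sign turned with either other scaling. Psmf1, the inhibitor PI31, was higher by 0.44 ± 0.10 (edgeR's quasi-likelihood test, adjusted p = 0.00332), a call that was lost with either other scaling.

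Psmc3ip, which only shares the name, was low in both libraries numbered 3 of JL, at 10.5 CPM in the IP and 3.85 in the input, against 36.5 to 39.5 and 16.9 to 18.2 in the others. Its log2 fold change of 1.15 ± 0.61 did not pass (adjusted p = 0.115, edgeR's quasi-likelihood test), but passed at 1.55 without JL IP replicate 3. Leaving out Psmc3ip changed no count of called genes.

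Genes outside the rule that act with the immunoproteasome were enriched in the JL IPs too. Of 15 genes of class I antigen processing, 13 (86.7%) were higher and 1 (6.67%) lower than in the inputs, beside 36.7% and 37.4% of all genes tested. Their median log2 change was 4.29. The peptide transporter genes Tap1 and Tap2 had log2 fold changes of 4.51 ± 0.29 and 4.29 ± 0.33, from 0.385 ± 0.0701 and 0.372 ± 0.128 CPM in the inputs to 8.88 ± 1.498 and 7.36 ± 0.659 in the JL IPs. B2m, the light chain of class I molecules, reached 2546, 2924 and 2211 CPM in the JL IPs against 71.5, 71.4 and 80.5 (log2 5.11 ± 0.13). The range ended at the class I transactivator Nlrc5 (6.22 ± 0.64) and at the chaperone Canx (-0.92 ± 0.07), the only gene called lower. All 5 passed edgeR's quasi-likelihood test, with adjusted p from 5.76e-09 (B2m) to 2.82e-05 (Nlrc5).

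Among 19 other partners of the proteasome, 8 were higher (42.1%) and 6 lower (31.6%) in the JL IPs, near the 36.7% and 37.4% of all genes, with a median of 0.12. Pomp, the chaperone that completes the core and is itself inducible by interferon, was at 741, 698 and 670 CPM against 196, 191 and 203 in the inputs (log2 1.84 ± 0.07; edgeR's quasi-likelihood test, adjusted p = 6.07e-08). Nfe2l1, the factor that restores subunit transcription when the proteasome is inhibited, lay at 232, 224 and 215 CPM against 253, 253 and 267 (log2 -0.20 ± 0.07; edgeR's quasi-likelihood test, adjusted p = 0.0234), and this call was lost with all 9 libraries in 1 fit and without input replicate 2 or 3. Its relative Nfe2l2, the oxidative stress factor, had the highest log2 fold change of the 19 (4.01 ± 0.08), and the shuttle factor Ubqln2 the lowest (-1.08 ± 0.10), with adjusted p = 2.69e-09 and 1.84e-05 by edgeR's quasi-likelihood test.

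The comparison of ES IP with JL IP set the same fraction from the 2 investigators side by side. The immune set was lower in the ES IPs and most of the 19S cap was higher, while most of the standard core did not pass the test. Of 50 genes tested, 14 were higher and 11 lower, 25 in all, beside 29.7%, 28.2% and 57.9% of all 16212 genes. These shares are near those of all genes, and the median log2 fold change was 0.09 over the family and 0.03 over all genes. The 14 include Psmb11, which had 1 read in the JL IPs and passed the expression filter only through the ES IPs. Groups did not overlap for 28.0% (ES IP higher) and 26.0% (lower) of the 50 genes, beside 32.0% and 33.9% of all genes. Without ES IP replicate 1, 12 were higher and 19 lower with a median of -0.20. That library had the highest CPM of the 3 ES IPs for 43 of the 50 genes, beside 44.0% of 15869 genes tested in every comparison. Investigator and any unrecorded difference in handling cannot be told apart.

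Psmb8, Psmb9 and Psmb10 were lower in the ES IPs, with log2 fold changes of -1.63 ± 0.33, -1.28 ± 0.33 and -1.11 ± 0.23 (edgeR's quasi-likelihood test, adjusted p = 0.0014, 0.00641 and 0.00186). Psme1 and Psme2 were lower as well (log2 -1.21 ± 0.29 and -1.22 ± 0.28; adjusted p = 0.00393 and 0.00301, edgeR's quasi-likelihood test), as were Psme2b (log2 -2.11 ± 0.39) and Psma8 (log2 -1.57 ± 0.34). These changes were smaller than those of the 10 endothelial markers, all lower in the ES IPs with log2 fold changes from -3.42 (Kdr) to -2.54 (Esam), a difference that was not tested. Of the class I antigen genes 12 of 15 (80.0%) were lower and none higher, beside 28.2% and 29.7% of all genes. Canx (log2 0.38) did not pass. It was called higher with DESeq2, limma-voom, either other scaling, all 9 libraries in 1 fit and without ES IP replicate 1. B2m had a log2 fold change of -3.02 ± 0.27. Psme4 was lower too, at 44.3, 49.1 and 55.7 CPM against 114, 121 and 108 (log2 -1.12 ± 0.16; edgeR's quasi-likelihood test, adjusted p = 0.000153), without overlap.

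Of the 17 cap subunits 11 (64.7%) were higher in the ES IPs and none was lower, beside 29.7% and 28.2% of all genes. Their median log2 fold change was 0.57. Without ES IP replicate 1, 9 were higher and 1 lower, and without any 1 JL IP 8 were higher and none lower. Psmc5 had the largest change, at 332, 337 and 283 CPM against 151, 143 and 147 (log2 1.19 ± 0.16; edgeR's quasi-likelihood test, adjusted p = 6.99e-05). Psmc3, another ATPase, followed with 159, 124 and 106 CPM against 63.3, 66.3 and 59.6 (log2 1.12 ± 0.18; adjusted p = 0.000284, edgeR's quasi-likelihood test). Psmd14 had a log2 fold change of 0.98 ± 0.19 (adjusted p = 0.00113, edgeR's quasi-likelihood test), and none of the 3 genes overlapped between the groups. Of the 14 standard core subunits only Psmb7 was higher (0.81 ± 0.18) and Psma3 and Psmb2 were lower (-0.81 ± 0.28 and -0.63 ± 0.20), with adjusted p = 0.00223, 0.0277 and 0.0184 by edgeR's quasi-likelihood test. The call of Psma3 was lost without ES IP replicate 2 or 3 or JL IP replicate 2, and that of Psmb2 without ES IP replicate 2 or 3 or JL IP replicate 1. Without ES IP replicate 1 the core had 1 higher and 6 lower. All 10 neuronal markers were higher in the ES IPs, by 2.28 (Syt1) to 4.17 (Eno2), and their part in the cap's difference was not tested.

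**Figure D5:**
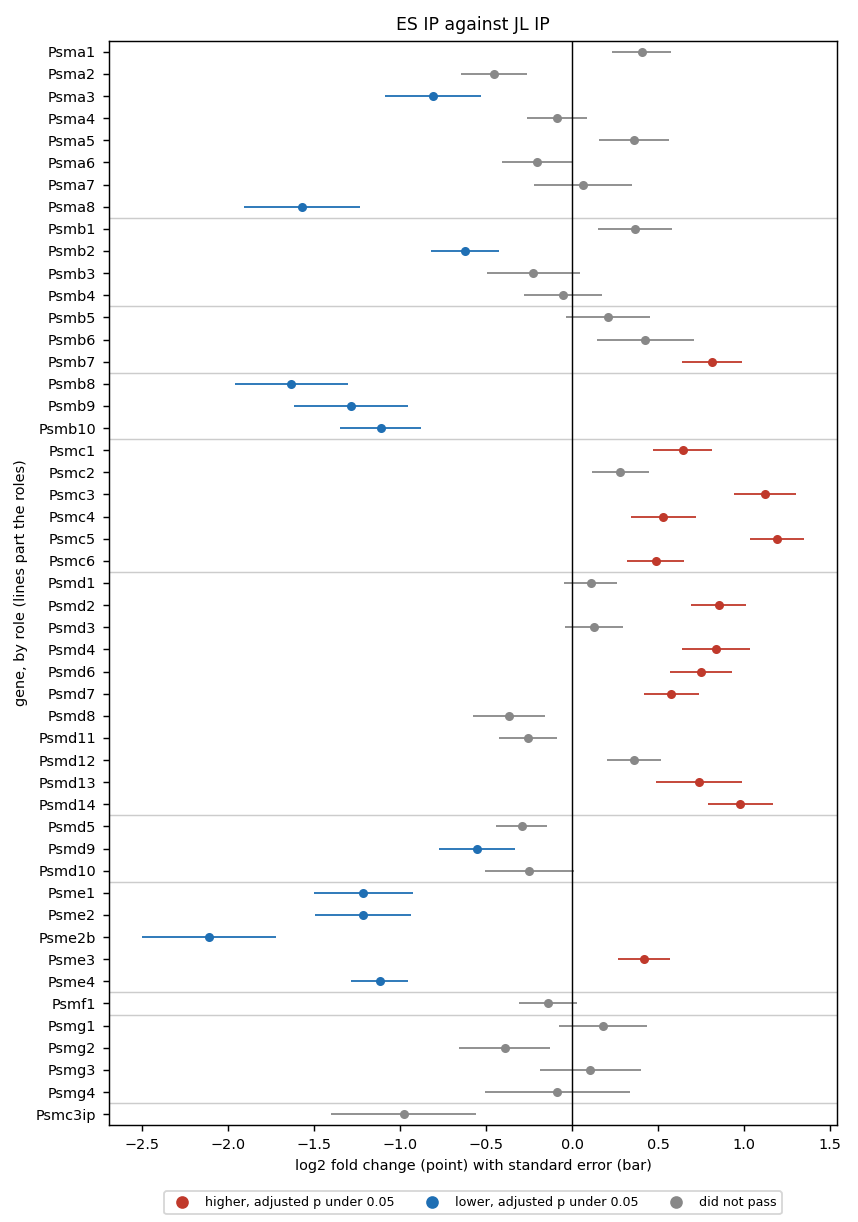
Log2 fold change of ES IP over JL IP for the proteasome genes by role, with SE bars; red and blue points (higher and lower) passed an adjusted p of 0.05 and grey points did not, and Psmb11 is left out because its fitted value rests on 1 read in the JL IPs. The immune subunits lie at -1.63 to -1.11 and the 19S subunits at -0.37 to 1.19.

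Against the JL inputs, which both IP groups share as controls, the ES IPs had 34 genes higher (68.0%), 2 lower and 36 called (72.0%) of 50, beside 26.9%, 25.3% and 52.2% of all 17477 genes by edgeR's quasi-likelihood test. Fraction and investigator cannot be told apart here. The median log2 fold change was 0.80, beside 0.00 for all genes. The 34 include Psmb11, which had 29 reads in the inputs and 91 in the ES IPs and passed the expression filter only through the latter. The immune subunits Psmb9, Psmb8 and Psmb10 were higher by 6.07 ± 0.47, 4.39 ± 0.40 and 1.17 ± 0.23 (edgeR's quasi-likelihood test, adjusted p = 3.98e-05, 8.19e-05 and 0.00342). The cap had 13 higher and none lower of 17, led by Psmd13 (1.55 ± 0.24), and the standard core 10 higher and 1 lower of 14. The lower genes were Psma3 (-0.77 ± 0.20) and Psme4 (-0.67 ± 0.12), with adjusted p = 0.0135 and 0.00255 by edgeR's quasi-likelihood test, and the call of Psma3 was lost without ES IP replicate 2 or input replicate 3.

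The mean level in the ES IPs lay between those of JL IP and JL input for 22 of 49 genes (44.9%), above both for 23 (46.9%) and below both for 4. Over the 15869 genes tested in every comparison these places held 53.2%, 24.7% and 22.1%. Of the cap subunits 14 of 17 lay above both, and of the standard core 6 of 14. Psmb8, Psmb9, Psmb10, Psme1 and Psme2 all lay between. The ES IP means include replicate 1, the highest ES IP for 43 of the 50 genes but for 44.0% of the 15869. The shares above both are therefore not like for like. Psmb6 was above both only through that library, with 120 and 106 CPM in the remaining ES IPs against a JL IP mean of 125. Psmb7 kept its place, at 191 and 168 against 122. How many genes kept theirs was not counted.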

How the data were processed

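The authors deposited a raw count for each gene in each library. The aligner was STAR 2.0.0e on mm10 and the counter HTSeq, per the submitters' processing notes, while annotation, strand setting and filters were not given in the sources used here. The 6 special entries were left out. Library sizes came from the 32531 genes. Per library, 3 counts correspond to 0.0644 to 0.0938 CPM. Tests used R 4.3.3 with edgeR 4.0.16 (its quasi-likelihood model after filterByExpr and TMM, Benjamini-Hochberg over all genes tested, threshold 0.05), using only the 2 groups compared, after a check on simulated counts. SE is the fold change over the square root of F. CPM used TMM factors over all 9 libraries. Gene positions came from the gene entries of GENCODE M21, and exon lengths from its transcripts matched to curated RefSeq transcripts. The RefSeq starts of the promoter windows can lie inside the gene positions printed, as for Psmb8 and Psmb9. Annotated pseudogenes Psmb5-ps, Psmb6-ps, Psmb6-ps2 and Psmb7-ps2 were not analysed here. Alternatives were DESeq2 1.42.0, limma 3.58.1 (voom), upper quartile scaling, library size alone, no filter, all libraries in 1 fit, a replicate block and leaving out each library. Named by rule were both catalytic sets, Psme1, Psme2, Tap1, Tap2, B2m, Pomp and Nfe2l1. Added to them were the genes with the highest and lowest log2 fold change of JL IP over input. These came from each role of 3 or more tested genes and from 2 pathway lists. Psma5, Psma6, Psma7, Psmc3, Psmc3ip, Psmb11, Psmd13 and Psme4 were singled out after their values were seen. Other members outside the rule are given by fold change without values per library. The genes and lists were chosen with earlier results of these data known.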

Additional observations from a re-analysis of the deposited data

Results flagged for a closer look

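Psmc5, an ATPase of the 19S cap, lay on opposite sides of the inputs in the IPs of the 2 investigators. It was lower than the inputs in the JL IPs (log2 -0.50 ± 0.07) and higher in the ES IPs (log2 0.61 ± 0.12), and the log2 fold change of ES IP over JL IP was 1.19 ± 0.16 (edgeR's quasi-likelihood test, adjusted p = 6.99e-05). Every ES IP library exceeded every input, and every JL IP library was below them.

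Psme4, the activator PA200, showed the opposite order. It was higher than the inputs in the JL IPs (log2 0.54 ± 0.07) and lower in the ES IPs (log2 -0.67 ± 0.12), and ES IP over JL IP gave a log2 fold change of -1.12 ± 0.16 (edgeR's quasi-likelihood test, adjusted p = 0.000153). Its 3 groups were fully separate. Both comparisons with the inputs share the same 3 control libraries.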

How the results depend on the processing

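Limits: 3 libraries a group, no ES input, and 21 reads in all inputs for Psma8. Genes called higher in JL IP over input numbered 35, with 28 to 36 under other settings and 33 to 37 when 1 library was left out; genes called lower numbered 4, with 7 (upper quartile scaling), 8 (library size alone) and 2 to 4 with a library left out. For ES IP over JL IP the counts were 14 (13 to 16; 10 to 15) and 11 (10 to 14; 8 to 19, the last without ES IP replicate 1), and for ES IP over input 34 (32 to 34; 26 to 36) and 2 (2 to 3; 1 to 2). With a replicate block the counts were 35 and 4, 13 and 13, and 34 and 2. Under it, in JL IP over input, the edgeR quasi-likelihood calls of Psmb7 (adjusted p = 0.0605), Psmd5 (0.0632) and Nfe2l1 (0.0524) were lost. Psmg2 (0.0415) and Psmc3ip (6.19e-05, log2 1.21) passed there. In ES IP over JL IP the call of Psme3 was lost (0.0535). No other gene named by the rule given above changed its call with the block. Other members did: in ES IP over JL IP lower genes rose from 11 to 13, and lower standard core subunits from 2 to 3. Same-numbered JL libraries deviated together with r of 0.0998, 0.0382 and 0.0593, each library matching its own number best, which is a hint from the data and not the design.

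Raw counts in place of counts per kilobase gave immune shares in ES IP, JL IP and input of 46.6, 76.5 and 5.07% (Psmb8), 36.9, 65.8 and 1.96% (Psmb9), and 53.9% (JL IP) and 20.6% (input) for Psmb10. With a library left out, the shares were 30.4 to 35.2, 62.2 to 68.0 and 2.79 to 2.92% (Psmb8), 24.4 to 27.8, 49.5 to 55.7 and 0.978 to 1.34% (Psmb9), and 19.5 to 21.8, 50.1 to 51.7 and 17.95 to 19.1% (Psmb10).

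Of the alternatives for named genes, 1275 kept direction and side of the threshold, 61 lost the call, 21 gained it and 21 changed sign; the cause was not tested. In JL IP over input the sign turned with upper quartile scaling and library size alone for Psmb5 (-0.10, -0.11), Psmb7 (-0.060, -0.068), Psma3 (-0.13, -0.13) and Psmd5 (-0.046, -0.054). With 1 library left out, ES IP over JL IP ran from -0.13 to 0.38 for Psmb5, -0.052 to 0.65 for Psmb6 and -0.015 to 0.21 for Psmd3, each lowest without ES IP replicate 1, and from -0.91 (without ES IP replicate 1) to 0.21 for Psmg4. ES IP over input ran from -0.060 to 0.45 for Psmb5, -0.29 to 0.052 for Psmg2 and -0.18 to 0.15 for Ubqln2, and was -0.037 for Psme3 with upper quartile scaling.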
